A study of Mus musculus with 28 samples.

Results

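The 35 genes described here encode the chaperones, folding enzymes, stress sensors and transcription factors of the endoplasmic reticulum (ER) folding machinery and of the unfolded protein response. They were listed by name, with earlier results of these data known, and they were 35 of 41605 gene identifiers in the count table. All 35 passed the filter on low counts and were among the 17700 genes tested. Levels come from bulk poly-A RNA sequencing of peripheral nerves of wild type C57BL/6J mice at the embryonic stages labelled E13 and E17 (labels that leave out a fraction of a day given by the study), postnatal days P1, P5, P14 and P24, and in young adults at P60, with 4 libraries per stage and 28 in all. The mice were not perfused. Each E13 library was pooled from 2 embryos of the same sex and held various nerves distal to the dorsal root ganglia, although the tissue is labelled sciatic nerve. E17 libraries held sciatic nerves pooled from 2 embryos, and every postnatal library held the sciatic nerves of 1 mouse. Epineurium and perineurium, the outer sheaths, were stripped off as far as possible from E17 on. E13 thus differs from the later stages in age, nerve and dissection together.

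Proteins that are secreted or inserted into membranes are folded in the ER, where Hsp70 and Hsp90 type chaperones, the lectin chaperones of the calreticulin cycle and disulfide isomerases act on them as they enter through the translocon. When unfolded proteins accumulate, the sensors IRE1, PERK and ATF6 start the unfolded protein response. IRE1 splices the Xbp1 transcript, PERK slows translation and favours translation of ATF4, and ATF6 is cut in the Golgi to release a transcription factor. In nerve, Schwann cells make large amounts of membrane and membrane glycoprotein during myelination, and fibroblast-like cells secrete the collagens of the endoneurium. Much of the response acts on proteins, splicing and translation, which counts per gene do not measure.

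Some of the promoters of these genes hold short elements through which the response is known to act, and these are shown before the values. RefSeq promoters (GRCm38.p6, 250 bases before to 50 bases after the annotated start) were found for 30 of the 35 genes and compared with 32851 promoters of the same length. The ER stress response element is written CCAAT, then 9 bases of any kind, then CCACG, and it was searched on both strands. It stood in 8 of the 30 promoters, those of Calr, Canx, Creld2, Dnajc3, Hsp90b1, Hspa5, Pdia6 and Syvn1, and in 39 of all promoters (0.119%). The 9 sites, with CCAAT and CCACG in capitals and each read 5′ to 3′ on the strand that carries it, were:
Hspa5, chr2:34772025-34772043: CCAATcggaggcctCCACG
Hsp90b1, distal, chr10:86705638-86705656: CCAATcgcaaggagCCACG
Hsp90b1, proximal, chr10:86705533-86705551: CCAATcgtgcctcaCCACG
Dnajc3, chr14:118937827-118937845: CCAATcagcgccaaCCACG
Calr, chr8:84847075-84847093: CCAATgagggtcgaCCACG
Canx, chr11:50325800-50325818: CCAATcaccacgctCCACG
Pdia6, chr12:17266491-17266509: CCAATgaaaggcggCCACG
Creld2, chr15:88819520-88819538: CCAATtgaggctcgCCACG
Syvn1, chr19:6046532-6046550: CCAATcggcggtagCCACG

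The short core CCACG, which is also the end of every such element and was counted with those overlaps, stood in 23 of the 30 promoters and in 32.8% of all promoters. TGACGTGG, the XBP1 binding motif, stood in none of the 30 and in 0.676% of all. TGATGNAAN, the composite site of C/EBP and ATF4, stood in 4 of the 30, those of Asns, Chac1, Herpud1 and Trib3, and in 3.95% of all. In Trib3 it began after the annotated start. The stretches before the RefSeq start of Hspa5, Herpud1 and Asns are given because their levels ran in 3 different ways along the timeline, with CCAAT and CCACG of the ER stress response element, other CCACG on the gene's strand and the composite site in capitals (in Herpud1 the composite site lies on the opposite strand and is read here on the strand of the gene). For Hspa5 and Asns the outermost GENCODE start lies farther upstream than the RefSeq start, so that the element of Hspa5 and the composite site of Asns stand within the gene bounds of GENCODE. A match is a description of the letters and not of binding.
Hspa5, chr2:34771940-34772089 (plus strand): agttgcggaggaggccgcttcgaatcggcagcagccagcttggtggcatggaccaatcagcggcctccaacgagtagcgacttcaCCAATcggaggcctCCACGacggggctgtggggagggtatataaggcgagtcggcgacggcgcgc
Herpud1, chr8:94386279-94386428 (plus strand): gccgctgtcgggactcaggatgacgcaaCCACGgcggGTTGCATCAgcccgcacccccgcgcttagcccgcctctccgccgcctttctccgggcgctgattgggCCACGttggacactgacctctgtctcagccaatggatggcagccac
Asns, chr6:7693210-7693329 (minus strand): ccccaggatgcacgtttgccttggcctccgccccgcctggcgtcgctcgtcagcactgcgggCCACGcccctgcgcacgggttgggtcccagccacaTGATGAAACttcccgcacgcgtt

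Total counts per library ran from 13899895 to 37662780, and E13 libraries carried RNA of other tissues. Summed markers of neuronal cell bodies were 148 to 415 CPM (counts scaled to a common total of reads, with TMM factors) at E13 and 2.69 to 6.87 at E17. Erythroid markers were 168 to 1753 and 77.1 to 178, and skeletal muscle markers 18.8 to 485 and 4.23 to 17.3. The 485 was E13 replicate 2 alone (18.8 to 38.3 in the others), and the 1753 was E13 replicate 4 alone (168 to 476 in the others). Schwann cell markers summed to 279 to 591 at E13, 2160.3 to 2345 at E17 and 3554 to 4041 at P60. The 4 mesenchymal markers (Pdgfra, Dcn, Lum and Col1a1) summed to 537 to 915 at E13, 5064 to 6139.9 at E17, 4102 to 5830.0 at P14 and 4093 to 5630.0 at P60. Adipocyte markers went from 0 to 0.126 at E17 to 58.3 to 152 at P60 and perineurial markers from 267 to 302 to 995 to 1399, while plasma cell markers, from the cell type richest in this machinery, stayed at or below 1.52 throughout. Markers of pericytes or smooth muscle went from 119 to 142 at E17 to 472 to 564 at P14. Cartilage markers, which include Col2a1, used in the study as a marker of endoneurial fibroblast-like cells, went from 91.2 to 109 to 8.28 to 10.5. Mast cell markers went from 35.8 to 96.8 to 9.88 to 17.3 in that span, macrophage markers from 106 to 214 at E13 to 58.7 to 66.8 at E17 and endothelial markers from 193 to 256 at P14 to 312 to 339 at P60. P24 replicate 2 stood apart from the other P24 libraries, with 3294 CPM of mesenchymal markers against 5832 to 6333 and 1.36 of adipocyte markers against 39.8 to 77.2. Within their stages, E13 replicates 1 and 4 and P1 replicate 1 also followed the GC content of genes, with slopes of -0.93, 0.73 and -0.43 on the log2 scale per 10 points of GC against at most 0.20 in size in the other 25 libraries. The part of these features in the results was not tested, except where values without those libraries are given. For GC content, a fit removed the trend in each library's deviation from its own stage mean, and it called 31 of the 35 genes from E13 to E17. That fit cannot remove a GC difference between stages, so it does not test one.

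As a share of all counts, the 35 genes together made up 0.665% ± 0.0407 (SD, n = 4) at E13 and 1.04% ± 0.0183 at E17. After birth it was lower, with 0.811% ± 0.0641 at P1 and 0.683% ± 0.0432 at P5. It stood at 0.512% ± 0.0235 at P14 and 0.493% ± 0.0348 at P24, and the P60 libraries had 0.408% ± 0.0170. No library of E17 overlapped with a library of any other stage, and no library of P60 did either. By stage mean, 17 of the 35 genes were highest at E17 and 16 were lowest at P60, but 6 were highest at P60 and 13 lowest at E13. In bulk tissue, fewer cells of a type and less RNA per cell cannot be told apart.

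**Figure D1:**
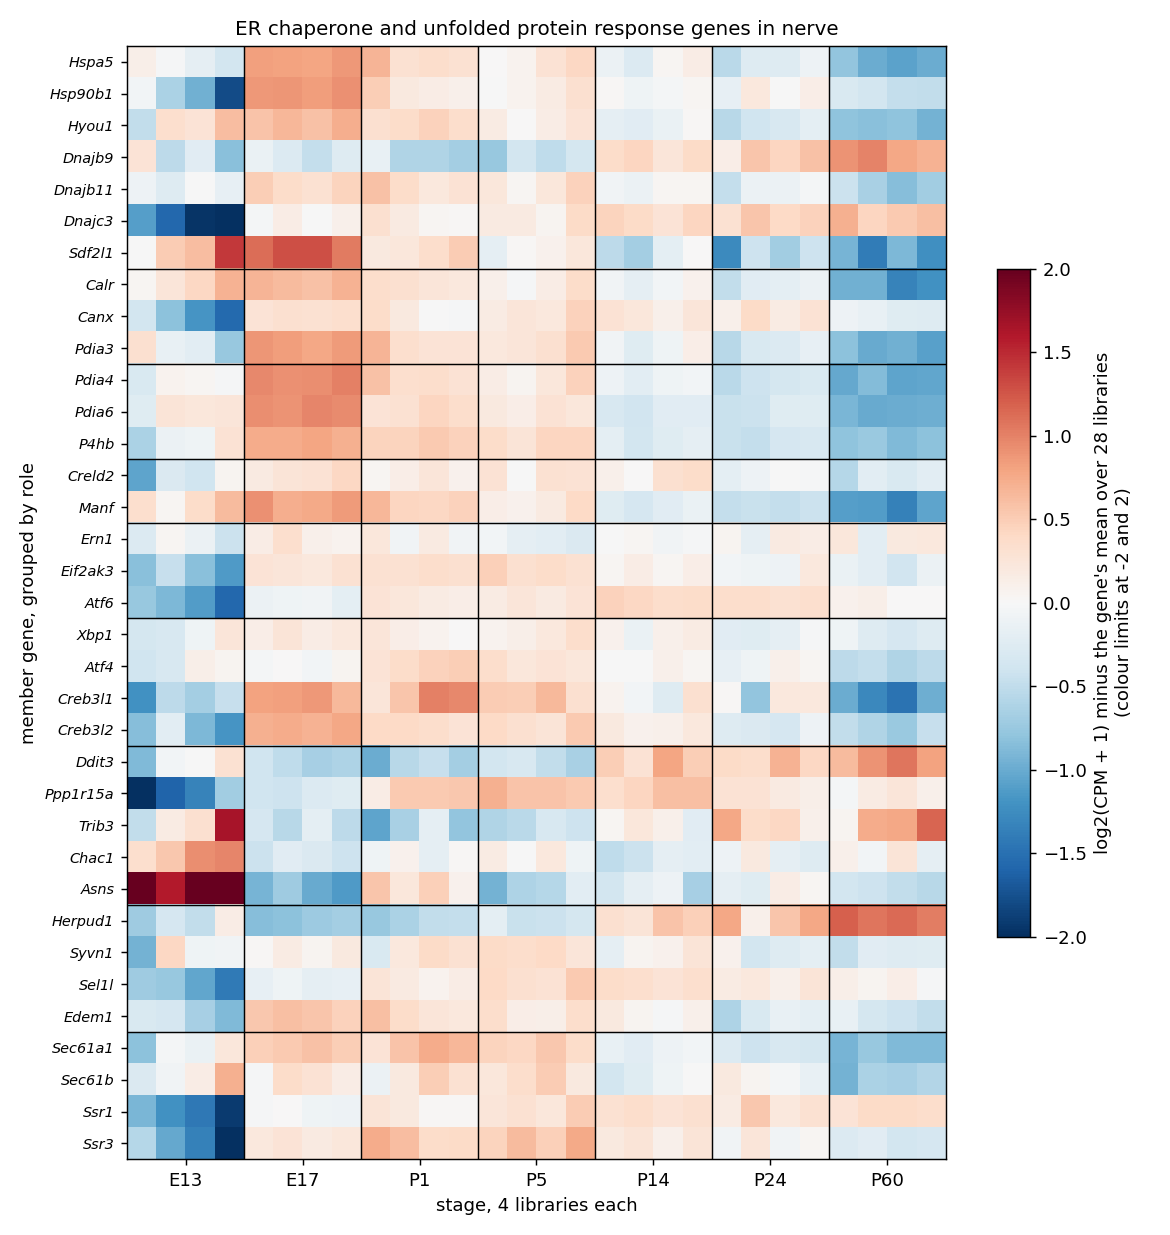
Level of each of the 35 genes (rows, grouped by role) in each of the 28 libraries (columns, replicates 1 to 4 of each stage), as log2(CPM + 1) minus the gene's mean over all libraries. In their stage means, most chaperones and disulfide isomerases were highest at E17 and lowest at P60, whereas Dnajb9, Ddit3 and Herpud1 were highest at P60 and Asns at E13.

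Differences between stages were tested in a single edgeR quasi-likelihood fit over all 28 libraries, with Benjamini-Hochberg adjustment over all 17700 genes, and every adjusted p below comes from it. A gene was called at an adjusted p under 0.05. Shares of all genes are from this fit unless another scaling is named. Counts of the 35 from other fits stand without such a share, so they are not a result about the 35 alone. Since comparisons that share a stage share its libraries, they are not independent of each other. A test for any difference among the 7 stages called all 35 genes, and 88.8% of all tested genes. The median range of the fitted stage values was 1.61 on the log2 scale for the 35 and 1.68 for all genes.

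From E13 to E17, 25 of the 35 rose and 5 fell, against 28.1% and 34.1% of all genes. The median log2 fold change was 0.69, and -0.08 over all genes. With a fold change of at least 2 as well, 14 were called, against 35.5% of all genes. Without E13 replicates 1 and 4 and P1 replicate 1 the counts were again 25 higher and 5 lower, but without E13 replicate 4 alone they were 26 and 2. When each library was left out in turn, the calls of Calr, Ddit3, Ern1, Herpud1, Hyou1, Trib3 and Xbp1 were each lost in at least 1 fit. From E17 to P1, 6 rose and 9 fell, against 15.1% and 14.4% of all genes, and 2 passed the fold criterion, against 11.7%. This count was 8 without E17 replicate 4 and 9 without P1 replicate 4, and the calls of Atf6, Calr, Chac1, Creb3l2, Hspa5, Manf, Pdia3 and Sel1l were each lost in at least 1 fit. From P1 to P5, none rose and 2 fell (Manf and Asns), against 10.3% and 7.33%, and 1 passed the fold criterion, against 5.84%. The call for Manf was lost in 7 of the 8 fits that left out a library of either stage, without P1 replicate 1, 2, 3 or 4 or P5 replicate 1, 2 or 3 (adjusted p = 0.0591 to 0.219). For this step 6 genes were called without E13 replicates 1 and 4 and P1 replicate 1, 7 without all E13 libraries and 11 with limma-voom. Scaling by library size alone called 10, all lower, when 18.2% of all genes were lower.

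From P5 to P14, 3 rose and 9 fell, against 15.4% and 14.2% of all genes, and 2 passed the fold criterion, against 12% of all genes. The count was 8 without P5 replicate 3, P14 replicate 1 or P14 replicate 2, with the calls of Chac1, Eif2ak3, Pdia3, Pdia4 and Sec61b lost in at least 1 fit, and 21 when the E13 libraries were left out of the fit. From P14 to P24, none of the 35 was called in the edgeR fit above, against 2.72% of all genes in each direction and 2.65% with the fold criterion. At an unadjusted p under 0.05 there were 6, of which 5 were lower. DESeq2 called 2 and limma-voom 11, all of them lower. Other edgeR fits called 6 without the E13 libraries, 7 on the compared stages only and 5 with the GC trend within stages removed, again all lower. The share of all genes is not given for these further counts. From P24 to P60, 1 rose and 13 fell, against 6.84% and 9.23%, and 1 passed the fold criterion, against 5.96%. Calls in either direction numbered 24 without the E13 libraries, 22 on the compared stages only and 23 with limma-voom. The call of Herpud1 was lost without P24 replicate 2 (adjusted p = 0.064) and that of Hyou1 without P24 replicate 4 (adjusted p = 0.0541).

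Over the longer spans, 8 rose and 15 fell from E17 to P14, against 29.5% and 27% of all genes. The median was -0.17 on the log2 scale and 0.00 over all genes, and 6 passed the fold criterion, against 31.4% of all genes. None of these 23 calls was lost when any 1 library was left out. From P14 to P60, 3 rose and 21 fell, against 14.2% and 15.7%. The median was -0.44, against -0.02 over all genes, and 3 passed the fold criterion, against 12.9%. The calls of Chac1, Dnajb9, Eif2ak3, Sec61b, Ssr3 and Xbp1 were each lost in at least 1 fit. Among the 8 comparisons, this was the one in which the share of the 35 that fell was farthest above that of all genes, and 2 of the 21 falls were at least 2-fold. Under scaling by library size alone the median of all genes was -0.48 from E17 to P14 and 0.15 from P14 to P60. This scaling gave 2 higher (Ddit3 and Herpud1) and 24 lower for the first span, against 17.8% and 47.3% of all genes, and 4 higher and 14 lower for the second, against 21.5% and 10%.

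**Figure D2:**
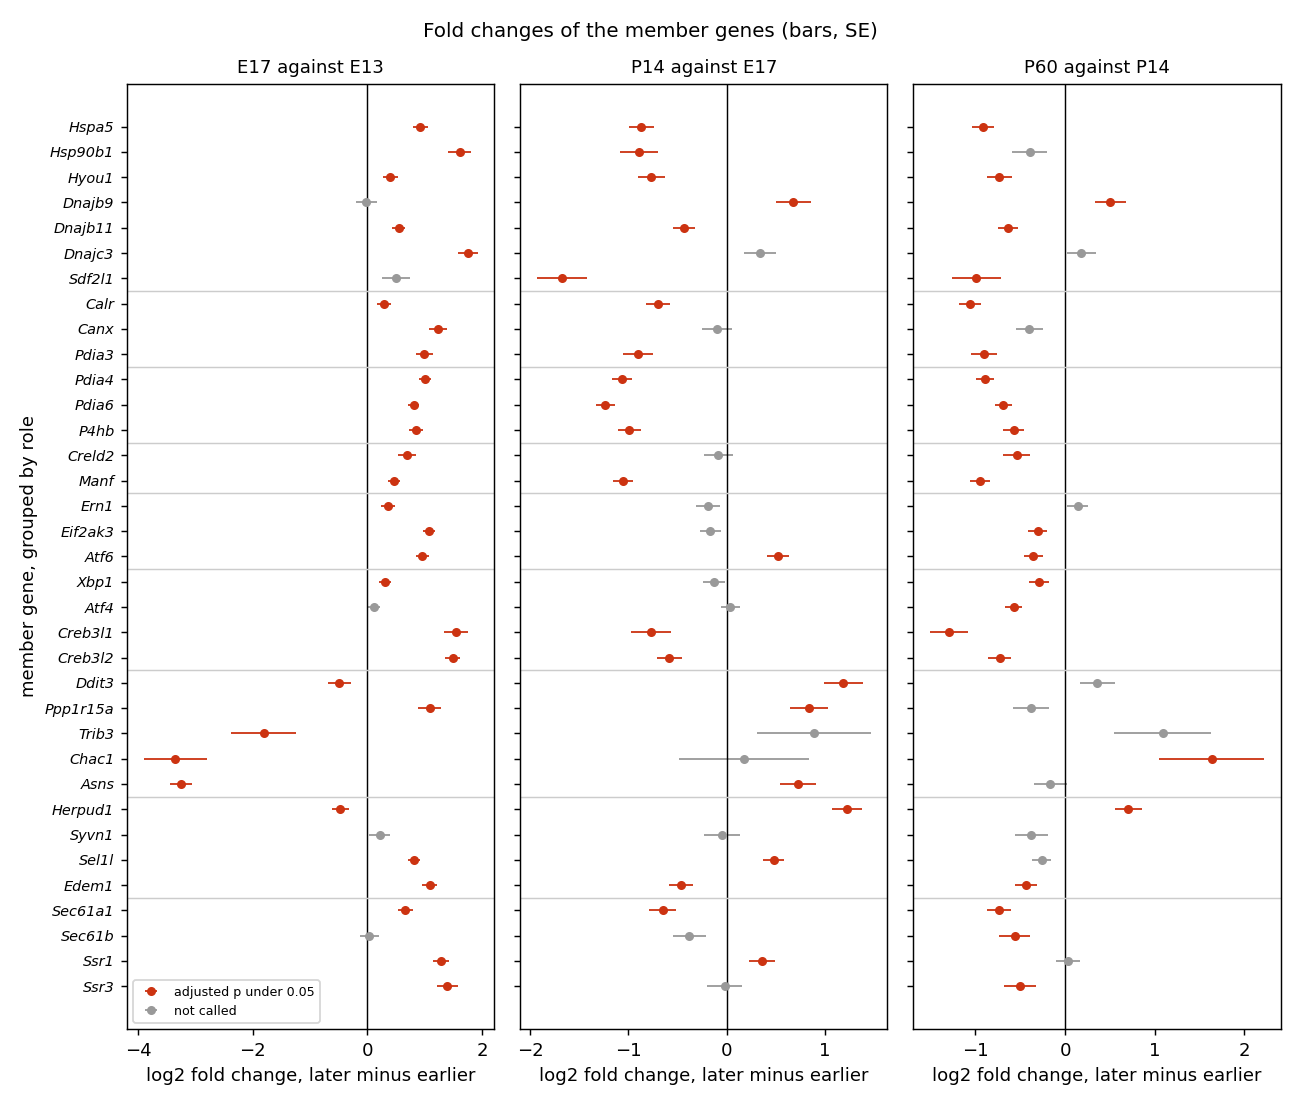
Fitted log2 fold change (points) with its SE (bars) of each of the 35 genes, grouped by role, for E17 against E13, P14 against E17 and P60 against P14, with different horizontal scales. Genes called at an adjusted p under 0.05 are red. All 3 disulfide isomerases lay right of 0 in the first panel and left of 0 in the other panels, and Herpud1 did the opposite.

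The counts in each role group are to be read against all genes. Of these, 28.1% rose and 34.1% fell from E13 to E17, 29.5% and 27% from E17 to P14, and 14.2% and 15.7% from P14 to P60. Among the Hsp70 and Hsp90 chaperones and their co-chaperones, 5 of 7 rose from E13 to E17 and 5 of 7 fell from E17 to P14. In the span from P14 to P60 4 of 7 fell, and there was 1 rise in each of the later spans. The summed level of the 7 was 1168 ± 243 CPM at E13, 2629 ± 66.7 at E17 and 1107 ± 69.4 at P60. Hspa5 (chr2:34771970-34777547 in GRCm38) encodes BiP, the Hsp70 of the ER lumen, which holds the sensors inactive when it is not occupied with unfolded chains. Its level in the 4 libraries was 567, 514, 459 and 403 CPM at E13, 924, 915, 897 and 948 at E17 and 832, 642, 663 and 645 at P1. It went on to 525, 544, 634 and 692 CPM at P5, 478, 431, 535 and 575 at P14, 359.7, 436, 433 and 486 at P24 and 301, 260.2, 246 and 263 at P60. Every E17 library was above every library of all other stages, and every P60 library was below all of them. Hspa5 rose 1.9-fold from E13 to E17 (log2 0.92 ± 0.12, adjusted p = 3.5e-07). It fell from E17 to P1 (-0.41 ± 0.12, adjusted p = 0.013) and from P24 to P60 (-0.68 ± 0.12, adjusted p = 0.00023), the first of these calls being lost without P1 replicate 4 (adjusted p = 0.0502), while the adjacent stages between P1 and P24 overlapped and were not called. Over the longer spans its log2 fold change was -0.87 ± 0.12, adjusted p = 1e-06, from E17 to P14 and -0.92 ± 0.12, adjusted p = 1.9e-06, from P14 to P60.

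Hsp90b1, the ER paralog of Hsp90 and a chaperone of integrins and Toll-like receptors, had the same peak, with 422 ± 197 CPM (SD, n = 4) at E13, 1284 ± 32.1 at E17, 691 ± 28.5 at P14 and 527 ± 31.8 at P60. It rose from E13 to E17 (log2 1.61 ± 0.20, adjusted p = 1e-07) and fell from E17 to P14 (-0.89 ± 0.20, adjusted p = 0.00036), and its value from P14 to P60 was -0.39 ± 0.20, adjusted p = 0.14. Hyou1, an exchange factor for BiP, fell in both spans (-0.77 and -0.73), and so did Dnajb11, a J-domain partner of BiP (-0.44 and -0.64). Sdf2l1, which works with Dnajb11, had the largest fall of the group in both spans. Its 4 libraries had 6.72, 10, 10.9 and 19.8 CPM at E13, 15.9, 18, 18 and 15.1 at E17 and 7.87, 8.08, 8.93 and 10.1 at P1. Later values were 5.88, 6.87, 7.23 and 8.11 CPM at P5, 4.4, 3.84, 5.8 and 6.8 at P14, 2.21, 4.81, 3.8 and 4.85 at P24 and 3.07, 1.96, 3.17 and 2.32 at P60. The E17 libraries were all above those of P1, and those of P1 to P60 descended with overlaps between adjacent stages. The log2 fold change of Sdf2l1 was -1.68 ± 0.25, adjusted p = 2.6e-06, from E17 to P14 and -0.99 ± 0.27, adjusted p = 0.0063, from P14 to P60.

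A pair of J-domain proteins did not share this course. Dnajc3, which inhibits PERK when cytosolic and assists BiP in the lumen, rose in the first step and stayed up. It had 53.9, 38.5, 29.2 and 20.9 CPM at E13, 113, 129, 115 and 125 at E17, 145, 132, 119 and 118 at P1 and 132, 132, 120.3 and 152 at P5. At P14 it had 158, 151, 141 and 158 CPM, at P24 145, 172, 153 and 161 and at P60 190.0, 156, 167 and 177. After its rise from E13 to E17 (3.37-fold, log2 1.75 ± 0.17, adjusted p = 9e-10) no comparison called it, with 0.34 ± 0.16, adjusted p = 0.081, from E17 to P14 and 0.18 ± 0.16, adjusted p = 0.44, from P14 to P60. Dnajb9, which brings BiP to IRE1 and to substrates of degradation, rose instead. It had 13 ± 1.36 CPM at E17, 11.2 ± 1.5 at P5, 20.8 ± 1.14 at P14 and 29.6 ± 2.85 at P60. Dnajb9 rose from P5 to P14 (log2 0.90 ± 0.18, adjusted p = 0.00033) and, over the longer spans, from E17 to P14 (0.68 ± 0.18, adjusted p = 0.0021) and from P14 to P60 (0.51 ± 0.18, adjusted p = 0.031), the last call being lost without P14 replicate 1, 3 or 4 or P60 replicate 1 or 2 (adjusted p = 0.0594 to 0.0892). Under scaling by library size alone the value of Dnajb9 from E17 to P14 was 0.18, adjusted p = 0.39. Both Dnajb9 and Hspa5 are textbook targets of the response.

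**Figure D3:**
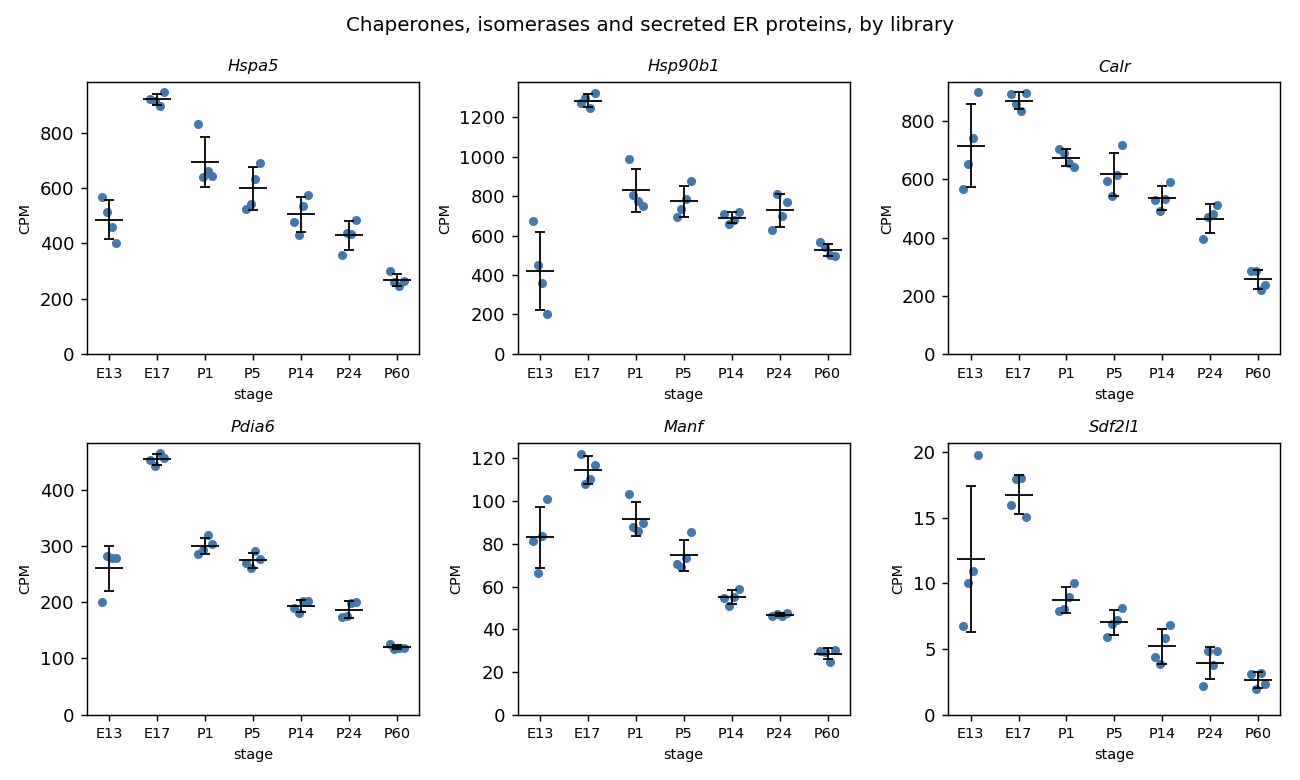
CPM (TMM-scaled, vertical axes from 0) of 6 genes in each of the 4 libraries (points) of the 7 stages, with the mean (line) and SD (bars). In all 6 the E17 mean was the highest and the P60 mean the lowest of the stages from E17 on.

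All 3 genes of the calreticulin cycle, which retains glycoproteins until they are folded, rose from E13 to E17, with the call for Calr lost without E13 replicate 1, 2 or 3 or E17 replicate 1, 2, 3 or 4 (adjusted p = 0.0712 to 0.207). Calr, the soluble lectin and a calcium store of the ER, fell in both later spans. In the 4 libraries it had 569, 654, 743 and 900.2 CPM at E13, 893, 861, 837 and 896 at E17 and 706, 691, 658 and 644 at P1. This was followed by 596, 543, 616 and 719.7 CPM at P5, 531, 491, 532 and 592 at P14, 395, 472, 482 and 512 at P24 and 286, 285, 219 and 238 at P60. E13 spanned the E17 values, and the P60 libraries were below those of every other stage. Calr fell from P24 to P60 by 0.86 ± 0.12 on the log2 scale (adjusted p = 1.1e-05). Over the longer spans its value was -0.70 ± 0.12, adjusted p = 2e-05, from E17 to P14 and -1.06 ± 0.12, adjusted p = 1.5e-07, from P14 to P60. Canx, its membrane-bound counterpart, had 406, 295, 231 and 177 CPM at E13, 634, 654, 645 and 661 at E17 and 675, 599, 521 and 513 at P1. It had 586, 618, 607 and 716 CPM at P5, 637, 609.5, 561 and 616 at P14, 559, 681, 584 and 638 at P24 and 489, 469.9, 442 and 437 at P60. Canx was called in the first step alone (1.23 ± 0.16, adjusted p = 1.4e-07), and although its P60 libraries lay below all those from E17 to P24, the value from P14 to P60 was -0.40 ± 0.15, adjusted p = 0.051. Pdia3, the oxidoreductase that Calr and Canx recruit, fell in both spans too, with -0.90 ± 0.15, adjusted p = 1e-05, from E17 to P14 and -0.90 ± 0.15, adjusted p = 3.3e-05, from P14 to P60.

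Disulfide isomerases moved together: each of the 3 rose from E13 to E17, fell from E17 to P14 and fell from P14 to P60. Summed, they had 732, 1024, 1029 and 1187 CPM in the E13 libraries, 1806, 1792, 1845 and 1796 at E17, 880.3, 801, 879.8 and 905 at P14 and 555, 570.3, 527 and 543 at P60. E17 did not overlap with any other stage, and neither did P60. Pdia6, which also acts on IRE1 and PERK, had 199.7, 283, 279 and 279.7 CPM at E13, 454, 443, 466 and 457 at E17 and 286, 294, 319.7 and 304 at P1. It continued with 270.1, 261, 291 and 276 CPM at P5, 189, 181, 202 and 202 at P14, 173, 175, 199 and 200.2 at P24 and 125, 117, 118 and 119 at P60. Its 3 falls, from E17 to P1 (log2 -0.60 ± 0.09, adjusted p = 1.5e-05), from P5 to P14 (-0.50 ± 0.09, adjusted p = 0.00014) and from P24 to P60 (-0.64 ± 0.09, adjusted p = 1.5e-05), were separated by steps that were not called. P4hb, which is also the beta subunit of collagen prolyl 4-hydroxylase, had 377, 539, 553 and 719 CPM at E13, 979, 985, 1013 and 954 at E17, 796, 794, 842 and 807 at P1 and 752, 701, 793 and 790.1 at P5. Its later levels were 513, 454, 497 and 518 CPM at P14, 429.7, 418, 464 and 469 at P24 and 336, 349, 318 and 332 at P60. P4hb fell from P5 to P14 by 0.62 ± 0.12 on the log2 scale (adjusted p = 0.00019), with no overlap between the libraries of those stages. Pdia4 fell from 372 ± 9.88 CPM at E17 to 178 ± 8.5 at P14 (log2 -1.07 ± 0.10, adjusted p = 4.5e-10) and 95.5 ± 5.97 at P60 (-0.90 ± 0.10, adjusted p = 6.3e-08).

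Both genes for small proteins that leave stressed cells rose from E13 to E17 and fell from P14 to P60. Manf, a neurotrophic factor retained in the ER by BiP, had 81.4, 66.3, 83.4 and 101 CPM at E13, 122, 108, 110.4 and 117 at E17 and 103, 87.9, 86 and 89.5 at P1. It had 70.7, 69, 73.3 and 85.4 CPM at P5, 54.7, 51.1, 55.3 and 59 at P14, 46.4, 47.2, 46.1 and 47.8 at P24 and 29.6, 29.3, 24.7 and 30.5 at P60. From E17 to P60 no library of a stage was above the lowest library of the stage before it. Manf fell by 1.06 ± 0.11 on the log2 scale (adjusted p = 2.1e-09) from E17 to P14, and its value from P14 to P60 was -0.95 ± 0.11, adjusted p = 9.3e-08. An exon of Manf overlaps with Dcaf1 on the opposite strand, so its counts are uncertain. Creld2, a secreted protein of the same response, had 15, 26.2, 24.2 and 33.6 CPM at E13, 36.8, 39, 39.9 and 43.6 at E17, 33.3, 35.6, 38.2 and 34.5 at P1 and 39.6, 32.1, 40.4 and 39.9 at P5. It then had 34.9, 32.6, 40.6 and 42.1 CPM at P14, 28, 30.1, 32 and 31.7 at P24 and 21.6, 27.9, 26.1 and 27.7 at P60. Unlike Manf, Creld2 was not called between E17 and P14 (-0.08 ± 0.15, adjusted p = 0.66), and it fell from P14 to P60 (-0.54 ± 0.15, adjusted p = 0.0077). A difference between the courses of Manf and Creld2 was not tested.

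The genes of the 3 sensors rose from E13 to E17, with the call for Ern1 lost without E17 replicate 2 (adjusted p = 0.052). Ern1, which encodes the kinase and endonuclease IRE1 alpha, had 17.3, 21.8, 19.5 and 15.5 CPM at E13, 23.6, 26.9, 22.7 and 22.3 at E17 and 24.9, 20.2, 24.2 and 20 at P1. Its later values were 20.3, 18.6, 18.2 and 17.1 CPM at P5, 21, 21.7, 20.1 and 20.9 at P14, 22, 18.6, 24.1 and 23.4 at P24 and 24.8, 18.2, 24.4 and 24.7 at P60. After E17 no comparison called Ern1, with log2 -0.19 ± 0.12, adjusted p = 0.18, from E17 to P14 and 0.14 ± 0.12, adjusted p = 0.43, from P14 to P60. Atf6 had 42.3, 38.2, 32.8 and 23.7 CPM at E13, 66.2, 67.8, 69 and 63.2 at E17, 87.4, 84.8, 81.1 and 78.9 at P1 and 81.3, 85.4, 82 and 87 at P5. It reached 99.8, 96.9, 92.3 and 93.4 CPM at P14, with 91.8, 92.4, 89.4 and 91.3 at P24 and 76.4, 77.9, 72.3 and 72.9 at P60. Every P14 library was above every E17 and every P60 library, with a rise from E17 to P14 (0.52 ± 0.11, adjusted p = 0.00017) and a fall from P14 to P60 (-0.35 ± 0.11, adjusted p = 0.013). Under scaling by library size alone the value of Atf6 from E17 to P14 was 0.03, adjusted p = 0.83. Eif2ak3, the gene of PERK, was highest at P5 (65.3 ± 3.74 CPM) and fell from P5 to P14 (-0.28 ± 0.11, adjusted p = 0.045) and from P14 to P60 (-0.31 ± 0.11, adjusted p = 0.03), to 43.4 ± 3.59 CPM. The first of these calls was lost without any 1 of the 8 libraries, and the second without P14 replicate 2 or 4 or P60 replicate 2 or 3 (adjusted p = 0.0579 to 0.113).

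All 4 genes of transcription factors fell from P14 to P60. Xbp1 fell least of the 4, and counts per gene do not separate its spliced from its unspliced form. It had 82.4, 84.4, 99.4 and 125 CPM at E13, 116, 127, 118 and 123 at E17, 125, 117, 112 and 107 at P1 and 112, 114, 122 and 135 at P5. It had 112, 96.1, 114 and 119 CPM at P14, 90.1, 89.4, 93.1 and 104 at P24 and 99.6, 88.4, 83.9 and 88.4 at P60. Adjacent stages overlapped throughout, and the fall from P14 to P60 was called with overlapping libraries (-0.29 ± 0.11, adjusted p = 0.043) and lost without P14 replicate 1, 3 or 4 or P60 replicate 2, 3 or 4 (adjusted p = 0.0824 to 0.122). Atf4, whose protein is made mainly when translation is slowed, had 114, 119.7, 163 and 156 CPM at E13, 147, 151, 145 and 156 at E17, 182, 194, 207 and 213 at P1 and 193, 175, 181 and 176 at P5. The other stages had 149, 150.2, 161 and 154 CPM at P14, 134, 142, 160.5 and 155 at P24 and 104, 108, 98.2 and 104 at P60. Atf4 rose from E17 to P1 (0.41 ± 0.10, adjusted p = 0.0019) and fell from P24 to P60 (-0.52 ± 0.10, adjusted p = 0.00039), and its P60 libraries were below all others. From E17 to P14 its value was 0.04 ± 0.10, adjusted p = 0.76, and -0.46 under scaling by library size alone, with a shift of -0.48 in all genes. Creb3l1, a membrane-bound factor of the ATF6 type that drives collagen genes in bone, fell most of the 4. It had 8.64, 14.5, 12.9 and 15.2 CPM at E13, 38, 38.1, 39.5 and 33.7 at E17, 25.4, 31.7, 43.8 and 42.4 at P1 and 30.8, 30.3, 33.8 and 26.7 at P5. It had 22.4, 20.5, 17.5 and 26.9 CPM at P14, 21.6, 11.9, 24.7 and 24.8 at P24 and 10.2, 8.13, 6.96 and 10.3 at P60. Its rise from E13 to E17 was 2.93-fold (log2 1.55 ± 0.21, adjusted p = 3.7e-07) and its value from P14 to P60 -1.29 ± 0.21, adjusted p = 3.1e-05. Creb3l2, its paralog, which acts on secretory genes in cartilage, had 239 ± 5.53 CPM at E17 and 96.4 ± 8.45 at P60, with -0.59 ± 0.13, adjusted p = 0.00034, from E17 to P14 and -0.73 ± 0.13, adjusted p = 8.1e-05, from P14 to P60.

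The output of the integrated stress response, which PERK and other kinases start and which runs through ATF4, differed from gene to gene. From E13 to E17, 1 of 5 rose and 4 fell, of which the calls for Ddit3 and Trib3 were lost without E13 replicate 4 (adjusted p = 0.165 and 0.138), and that for Ddit3 also without E13 replicate 3 or E17 replicate 3 or 4. From E17 to P14, 3 rose and none fell, and under scaling by library size alone Ddit3 kept its call while Ppp1r15a (adjusted p = 0.104) and Asns (adjusted p = 0.278) did not. Ddit3 (chr10:127290774-127296288 in GRCm38) encodes CHOP, a factor linked to cell death under long stress. Its 4 libraries had 4.64, 9.01, 9.32 and 11.8 CPM at E13, 6.93, 6.34, 5.59 and 5.78 at E17, 4.23, 6.12, 6.6 and 5.52 at P1 and 7.09, 7.33, 6.42 and 5.65 at P5. They had 13.6, 11.8, 16.9 and 13.6 CPM at P14, 12.6, 12.2, 16 and 12.9 at P24 and 15.2, 18.4, 21 and 17.3 at P60. All libraries of P14, P24 and P60 were above all of those of E17, P1 and P5, and the E13 libraries spread over the gap between them. Ddit3 rose 2.11-fold from P5 to P14 (log2 1.08 ± 0.20, adjusted p = 0.00011), and from P14 to P60 its value was 0.36 ± 0.19, adjusted p = 0.17. An exon of Ddit3 overlaps by 68 bases with Mars on the opposite strand, and whether the counts used strand is not stated, so these values are uncertain.

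Asns, asparagine synthetase and a direct target of ATF4, had its high level at E13. It had 44.7, 32.1, 51.6 and 52.4 CPM at E13, 4.78, 5.7, 4.46 and 4.02 at E17, 15.1, 11.8, 14.4 and 10.7 at P1 and 4.71, 6.16, 6.42 and 8.48 at P5. The later stages held 7.57, 8.7, 9.27 and 5.93 CPM at P14, 8.67, 8.32, 11.3 and 10.3 at P24 and 7.53, 7.26, 6.84 and 6.47 at P60. It fell by 3.25 ± 0.19 on the log2 scale (adjusted p = 7.1e-14) from E13 to E17, rose 2.73-fold from E17 to P1 (log2 1.45 ± 0.19, adjusted p = 7.1e-07) and fell again from P1 to P5 (-1.01 ± 0.18, adjusted p = 0.00017). The P1 libraries did not overlap with those of E17 or P5. Chac1, which degrades glutathione and is induced late in the response, was near the limit of detection, so raw counts are given. There were 24, 26, 47 and 34 reads at E13, 1, 4, 4 and 1 at E17, 9, 12, 7 and 14 at P1 and 14, 14, 15 and 9 at P5. At P14 there were 0, 1, 6 and 6 reads, at P24 4, 12, 5 and 5 and at P60 7, 5, 11 and 4. Chac1 was called lower at E17 than at E13 (adjusted p = 8.2e-06), higher at P1 than at E17 (adjusted p = 0.046), lower at P14 than at P5 (adjusted p = 0.018) and higher at P60 than at P14 (adjusted p = 0.035). The last 3 calls were each lost in 3 to 6 of the 8 fits that left out a library, and the first in none. In fits of the compared stages alone Chac1 did not pass the filter on low counts in the comparisons of these 3 calls, so they were possible only because its reads at other stages let it through. Trib3, a pseudokinase that restrains ATF4, had 0.53, 1.41, 1.7 and 5.79 CPM at E13 and between 0.0364 and 0.912 at E17, P1 and P5. At P60 Trib3 had 1.24, 2.61, 2.67 and 3.83 CPM, which overlapped with the stages P14 and P24. The fall of Trib3 from E13 to E17 (-1.81 ± 0.57, adjusted p = 0.0075) included a high E13 replicate 4, one of the libraries that followed GC content, and the call was lost without E13 replicate 4 (adjusted p = 0.138). Ppp1r15a, the phosphatase subunit that ends the translational block, rose from 29.2 ± 14.2 CPM at E13 to 61.7 ± 3.83 at E17, 106 ± 13.1 at P1 and 110.3 ± 9.85 at P14 (0.84 ± 0.20, adjusted p = 0.0007, from E17 to P14), and had 84.7 ± 6.61 CPM at P60.

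**Figure D4:**
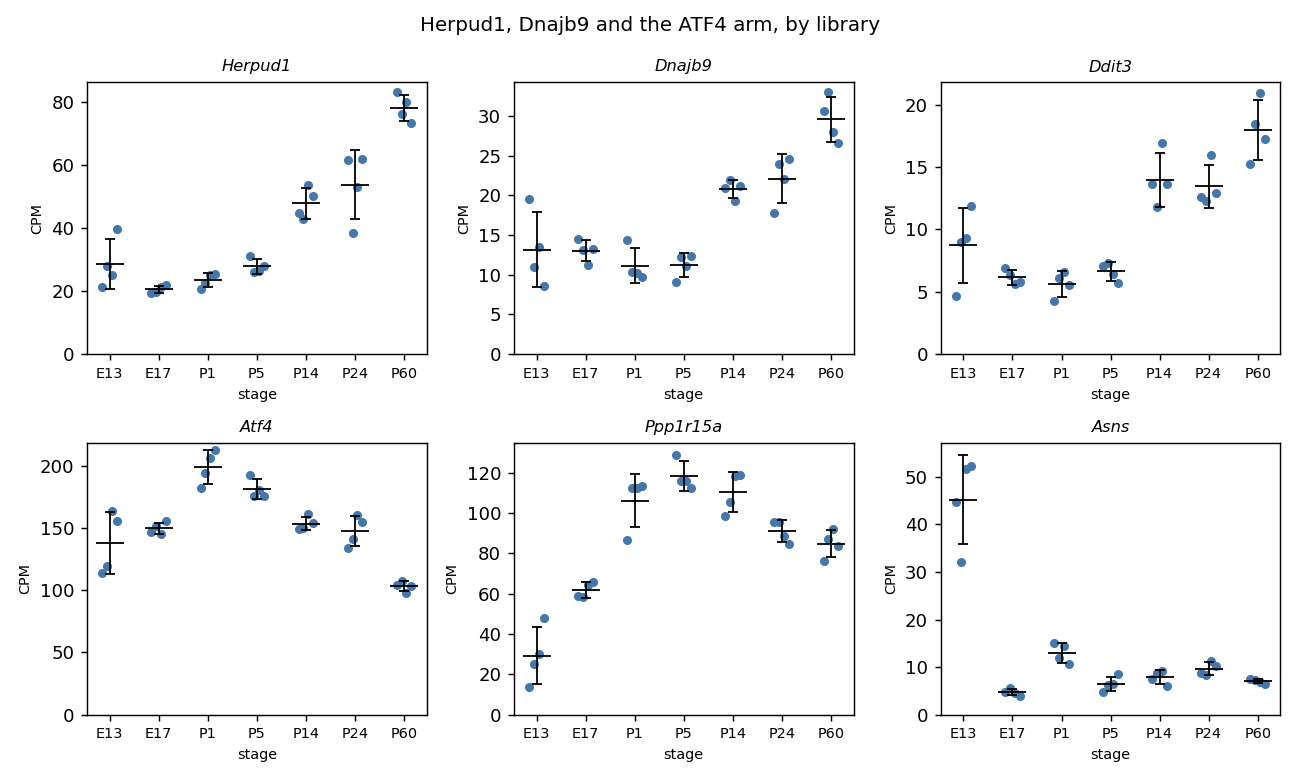
CPM (TMM-scaled, vertical axes from 0) of Herpud1, Dnajb9 and 4 genes of the ATF4 arm in each of the 4 libraries (points) of the 7 stages, with the mean (line) and SD (bars). Herpud1, Dnajb9 and Ddit3 had all of their P14, P24 and P60 libraries above those of P1 and P5, Atf4 was highest at P1, and Asns had its high level at E13 alone.

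Genes of ER-associated degradation, which returns misfolded proteins to the cytosol, did not move as a group. Herpud1 (chr8:94386438-94395377 in GRCm38), a membrane protein that assembles the degradation complex, rose most of the 35 from E17 to P14. It had 21.4, 28, 25.2 and 39.7 CPM at E13, 19.4, 19.7, 21.1 and 21.9 at E17, 20.7, 22.7, 25.2 and 25.5 at P1 and 31.1, 26.1, 26.4 and 27.8 at P5. It had 44.8, 42.8, 53.6 and 50.1 CPM at P14, 61.6, 38.4, 52.9 and 61.9 at P24 and 83, 76, 79.9 and 73.3 at P60. No library of P14 or later overlapped with a library of E17 to P5, and the P60 libraries were above all others. Herpud1 rose 2.33-fold from E17 to P14 (log2 1.22 ± 0.15, adjusted p = 1e-07) and 1.63-fold from P14 to P60 (0.71 ± 0.15, adjusted p = 0.00053), the latter over the span in which 21 of the other genes fell. Syvn1, the ubiquitin ligase HRD1, was called in none of the 8 comparisons. It had 19.6, 51.5, 36.1 and 36.8 CPM at E13, 39.3, 43.1, 40.2 and 44 at E17, 30.9, 44.8, 50.6 and 47.6 at P1 and 50.3, 49.6, 51.3 and 45.7 at P5. It had 33.9, 40, 41 and 46.5 CPM at P14, 41.1, 29.7, 32 and 33.6 at P24 and 27.2, 32.7, 32 and 32.5 at P60. The value of Syvn1 was -0.04 ± 0.18, adjusted p = 0.85, from E17 to P14 and -0.38 ± 0.18, adjusted p = 0.13, from P14 to P60, although the P60 libraries were all below those of P14. An exon of Syvn1 overlaps with Mrpl49 on the opposite strand. Sel1l, the partner of HRD1, rose from E17 to P14 (0.48 ± 0.11, adjusted p = 0.00039), from 188 ± 5.79 to 262 ± 6.42 CPM, but its value was -0.016 under scaling by library size alone. Edem1, which marks glycoproteins for disposal, fell from E17 to P14 (-0.46 ± 0.12, adjusted p = 0.0025) and from P14 to P60 (-0.44 ± 0.13, adjusted p = 0.0091).

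In the translocon, 3 of 4 genes rose from E13 to E17 (28.1% of all genes) and 3 of 4 fell from P14 to P60 (15.7% of all genes). Sec61a1, the channel subunit, had 102, 176, 165 and 212 CPM at E13, 252, 259, 270.1 and 253 at E17, 218, 269, 301 and 287 at P1 and 246, 240.0, 262 and 232 at P5. It had 162, 154, 167 and 174 CPM at P14, 149.7, 134, 144 and 141 at P24 and 93.8, 106, 97.5 and 97.2 at P60. None of the P14 to P60 libraries reached those of E17 to P5, and the value was -0.57 ± 0.13, adjusted p = 0.0017, from P5 to P14. Ssr1, a subunit of the translocon-associated protein complex, stayed up instead. Its libraries had 167, 135, 117 and 82.6 CPM at E13, 311, 317, 298 and 294 at E17, 374, 358, 320.2 and 321 at P1 and 374, 387, 369 and 449.7 at P5. The last stages had 388, 403, 382 and 393 CPM at P14, 354, 455, 365 and 389 at P24 and 381, 409, 409 and 400.3 at P60. Ssr1 rose from E17 to P14 (0.36 ± 0.13, adjusted p = 0.022), with -0.13 under scaling by library size alone, and its value from P14 to P60 was 0.03 ± 0.13, adjusted p = 0.9. Ssr3, another subunit of that complex, fell from P14 to P60 (-0.51 ± 0.18, adjusted p = 0.034), and so did Sec61b, the beta subunit of the channel (-0.56 ± 0.17, adjusted p = 0.013). The call for Ssr3 was lost without P14 replicate 1, 2 or 4 or P60 replicate 1, 3 or 4 (adjusted p = 0.058 to 0.0779), and that for Sec61b without P60 replicate 1 (adjusted p = 0.0505).

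Levels of different genes were compared per length of their merged exons (RPKM, CPM per kilobase). At E17 the highest were P4hb with 344, Hsp90b1 with 319, Calr with 303, Pdia3 with 249.1 and Hspa5 with 218 RPKM, and the lowest were Trib3 with 0.304 and Chac1 with 0.074 RPKM. At P60 Hsp90b1 led with 131 RPKM, before P4hb with 117, Canx with 97.9 and Calr with 89.2. The order among the first 3 at E17 changed with the length used: by the longest transcript Calr stood before Hsp90b1 and P4hb. At P60 Hsp90b1 stayed first by that length, followed by Calr, P4hb, Ssr3 and Canx.

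**Figure D5:**
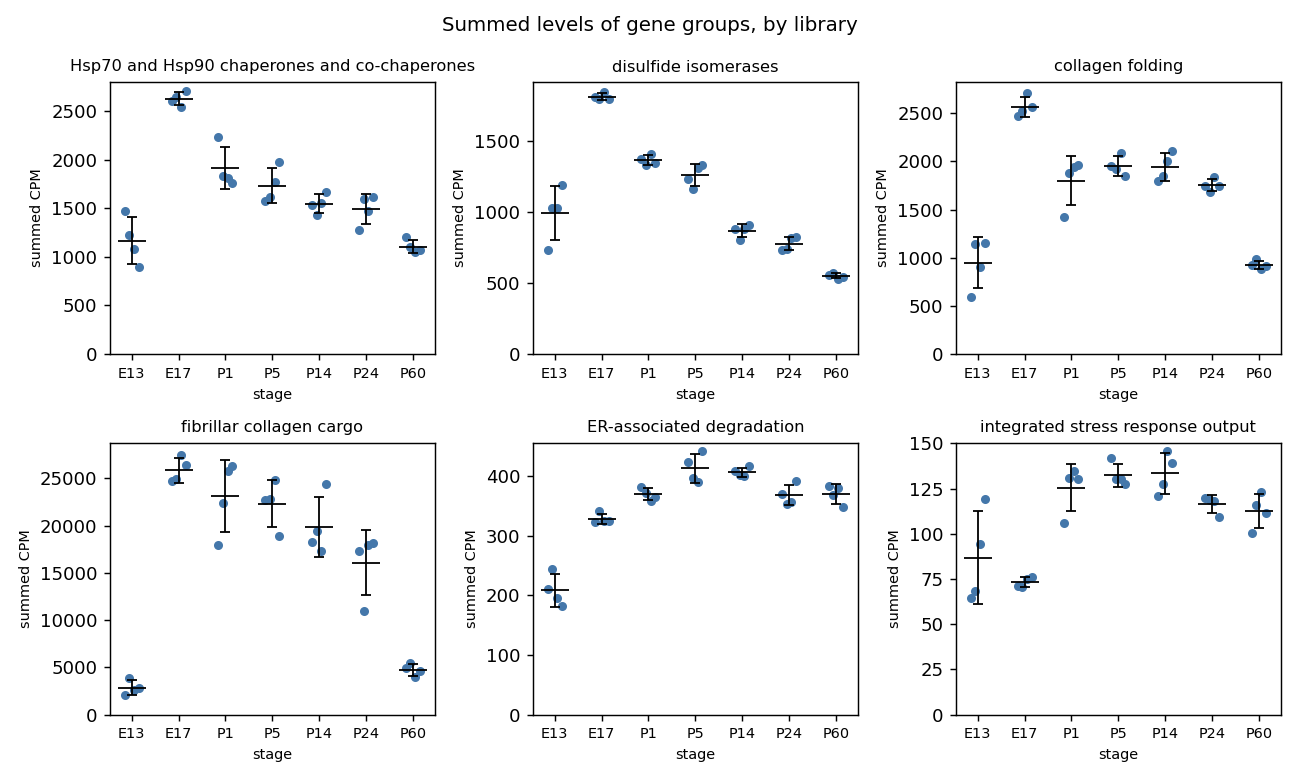
Summed CPM (TMM-scaled, vertical axes from 0) of 6 gene groups in each of the 4 libraries (points) of the 7 stages, with the mean (line) and SD (bars). The sums of the Hsp70 and Hsp90 group, the disulfide isomerases and both collagen groups were highest at E17, while those of ER-associated degradation and of the integrated stress response output were higher at P14 than at E17. Sel1l was the largest part of the degradation sum (188 CPM at E17 and 262 at P14), and Ppp1r15a of the stress response sum (61.7 and 110.3 CPM). Under scaling by library size alone the sum of ER-associated degradation was lower at P14 (333 ± 8.3) than at E17 (377 ± 10.2).

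Other genes of the pathway give the setting of these changes. Their counts are to be read against the shares of all genes that rose and fell. These were 28.1% and 34.1% from E13 to E17, 29.5% and 27% from E17 to P14, and 14.2% and 15.7% from P14 to P60. Of 15 other ER folding and oxidation enzymes, 13 rose and none fell from E13 to E17, 2 rose and 9 fell from E17 to P14, and none rose and 9 fell from P14 to P60. Pdia5, an oxidoreductase, had the largest falls of that list, with log2 -1.28 ± 0.16, adjusted p = 7.8e-08, from E17 to P14 and -0.80 ± 0.16, adjusted p = 0.0003, from P14 to P60. The exchange factor of BiP encoded by Sil1 rose from E17 to P14 (0.96 ± 0.17, adjusted p = 3.2e-05). Median values of the list were -0.47 and -0.44 on the log2 scale in the 2 spans, against 0.00 and -0.02 over all genes.

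Collagen is a large cargo of the ER in fibroblast-like cells. All 10 genes of collagen folding and all 5 fibrillar collagens rose from E13 to E17 with at least 2-fold changes. Of all genes, 28.1% rose, and 35.5% were called with at least 2-fold changes in either direction. The summed level of the collagens was 2039.6, 3913, 2557 and 2815 CPM in the E13 libraries, 24697, 24886, 27447 and 26368 at E17, 17302, 10973, 17912 and 18158 at P24 and 4941, 5458, 3991 and 4587 at P60. All 5 collagens fell from P14 to P60, with a median of -1.65 on the log2 scale, and so did 7 of the 10 folding genes, with a median of -0.78. Col3a1 had the largest fall (-2.98 ± 0.22, adjusted p = 3.9e-11) of the collagens. Serpinh1, the collagen chaperone of the ER, fell from 879 ± 107 CPM at P14 to 277 ± 25.1 at P60 (-1.67 ± 0.20, adjusted p = 3.3e-07). From E17 to P14, when 15 of the 35 genes fell, 3 of 5 collagens and 3 of 10 folding genes fell and none rose. P4ha2, a collagen prolyl hydroxylase subunit, fell most of these (-1.77 ± 0.18, adjusted p = 3.1e-09). Among the mesenchymal markers, whose sums overlapped between P14 and P60, Dcn (1.35 ± 0.20, adjusted p = 8.9e-06) and Pdgfra (0.63 ± 0.23, adjusted p = 0.039) rose from P14 to P60 while Col1a1 fell. Whether the chaperones follow their cargo was not tested.

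Among 15 other targets of ATF4, from E17 to P14 3 rose and 5 fell, and from P14 to P60 2 rose and 3 fell, with a median of -0.12 and 0.06 on the log2 scale. These shares of 20% and 33.3%, then 13.3% and 20%, were near those of all genes. Slc7a5, the light chain of a large amino acid transporter, rose most, from 14.6 ± 1.57 CPM at E17 to 84.8 ± 8.84 at P14 and 234 ± 23.1 at P60 (log2 2.53 ± 0.20, adjusted p = 2.2e-11, and 1.46 ± 0.19, adjusted p = 9.6e-07). Atf3, an early stress factor, had 8.28 ± 2.08 CPM at E13, 97.9 ± 9.36 at E17 and 12.6 ± 1.42 at P14, the largest fall of the list (-2.95 ± 0.18, adjusted p = 1.2e-13). The mitochondrial folate enzyme encoded by Mthfd2 fell most from P14 to P60 (-1.28 ± 0.16, adjusted p = 3.5e-07). From E13 to E17, 5 of the 15 rose and 4 fell (33.3% and 26.7%), near the 28.1% and 34.1% of all genes. Those that rose included Psat1 (1.08 ± 0.10, adjusted p = 9.7e-10) and Phgdh (0.98 ± 0.25, adjusted p = 0.0014) and those that fell included Slc7a11, the cystine transporter, with 28.4 ± 18.5 CPM at E13 and 0.408 ± 0.251 at E17. These 3 genes were chosen after their values were seen.

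Of 12 other genes of unfolded protein response signalling, 4 rose and 2 fell from E17 to P14 (33.3% and 16.7%), and 1 rose and 4 fell from P14 to P60 (8.33% and 33.3%). Tmbim6, an ER membrane protein that restrains IRE1, rose most (1.51 ± 0.17, adjusted p = 2.9e-08), from 220.3 ± 10.8 to 628 ± 48.9 CPM, and Eif2s1, the alpha subunit of eIF2 that PERK phosphorylates, fell most (-0.60 ± 0.15, adjusted p = 0.0011). From P14 to P60, the paralog Atf6b fell (-0.76 ± 0.23, adjusted p = 0.011) and Eif2ak4, the kinase that senses amino acid shortage, rose (0.36 ± 0.12, adjusted p = 0.026). Among 14 other genes of ER-associated degradation, 7 rose and 1 fell from E17 to P14, and 2 rose and 2 fell from P14 to P60. Vcp, the ATPase that extracts substrates, fell in both spans (-0.44 ± 0.08, adjusted p = 4.7e-05, and -0.48 ± 0.08, adjusted p = 4.5e-05).

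Of 17 other genes of translocation and N-glycosylation, 3 rose and 9 fell from E17 to P14, and 1 rose and 7 fell from P14 to P60. Ostc, a subunit of the oligosaccharyltransferase, fell most in the first span (-0.96 ± 0.09, adjusted p = 1.1e-09) and Ssr2, of the complex that holds Ssr1, in the second (-0.80 ± 0.17, adjusted p = 0.00053). The rises were led by Srp54a of the signal recognition particle (1.61 ± 0.50, adjusted p = 0.008), which has near-identical copies and is uncertain, and by Sec63 (0.59 ± 0.22, adjusted p = 0.046). In the COPII coat, which carries folded cargo out of the ER, 2 of 11 rose and 6 fell in the first span, led by Sar1b (0.26 ± 0.10, adjusted p = 0.026) and Sec24c (-0.59 ± 0.09, adjusted p = 3.4e-06), and none rose and 5 fell in the second, led by Sec23b (-0.64 ± 0.09, adjusted p = 3e-06).

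Heat shock genes outside the ER, which answer to another response, were compared as 12 genes, with Hspd1 and Hspe1 of the mitochondrion among them. From E17 to P14, 4 rose and 5 fell, and from P14 to P60, 1 rose and 6 fell. Hspa1a, the inducible cytosolic Hsp70, rose most (2.62 ± 0.36, adjusted p = 4.8e-07), from 0.69 ± 0.275 CPM at E17 to 4.33 ± 2.08 at P14, and shares nearly its whole sequence with Hspa1b, so counts of either are uncertain. Hspd1, the mitochondrial chaperonin, fell in that span (-0.72 ± 0.17, adjusted p = 0.00065). From P14 to P60, the small heat shock protein gene Hspb1 rose (2.11 ± 0.39, adjusted p = 0.00015), from 6.4 ± 0.956 to 27.6 ± 7.23 CPM, and Hsph1 fell (-0.80 ± 0.18, adjusted p = 0.0011). Medians of the list were -0.22 and -0.38 on the log2 scale.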

How the data were processed

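Per the study's methods, single-end reads came from strand-specific poly-A (TruSeq) libraries. The authors aligned them with STAR 2.6.1c and counted reads per gene with featureCounts, and the deposited values are raw counts that were not normalized. Submitters' processing notes name GRCm38.p5, whereas the study's methods name GRCh38.p10, a human build name. The strand and multi-mapping settings of the counting are not given in the sources used here, so overlapping genes are uncertain. Identifiers (41519 of 41605) were matched to GENCODE M21 (GRCm38), which gave symbols, lengths and coordinates. Counts were filtered with filterByExpr by stage, scaled by TMM and fitted in edgeR 4.0.16 (R 4.3.3; quasi-likelihood, robust, stage as the only term, common dispersion 0.0439), with 8 comparisons. SE was taken as the size of the log2 fold change over the square root of F. Fits were tested on simulated data.

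Members and pathway lists were chosen with earlier results of these data known. Genes with values in every library were, in each role group, those with the largest and the smallest change over P14 against E17 and P60 against P14, plus Hspa5, Xbp1, Atf4 and Ddit3. From each list, the called genes with the largest rise and fall in those spans were named, except for a gene that is not reported here. Alternatives were DESeq2 1.42.0 (size factors or test), library size only, other filters, limma-voom (limma 3.58.1), fewer stages, GC trend removal within stages, a replicate block, and each library left out. The study describes the libraries of a stage as independent samples.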

Additional observations from a re-analysis of the deposited data

Results flagged for a closer look

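In each of the 245 sets of 4 libraries (35 genes at 7 stages), the highest and lowest library was compared with the rest, and 11 sets (4.49%) held a library whose gap to its nearest neighbour passed Dixon's critical value for its share of the range. Chance flags about 1 in 20 such sets. In P1 replicate 1, Hspa5 had 832 CPM (the other libraries 642 to 663), Dnajb9 14.4 CPM (9.68 to 10.3), Pdia3 698 CPM (526 to 549) and Ppp1r15a 86.4 CPM (112 to 113). Pdia6 had 199.7 CPM in E13 replicate 1 (279 to 283 in the others). P1 replicate 1 and E13 replicate 1 are among the 3 libraries that followed GC content. In the other libraries, Pdia4 had 104 CPM in P60 replicate 2 (91.6 to 93.6), Creld2 32.1 CPM in P5 replicate 2 (39.6 to 40.4), Ern1 18.2 CPM in P60 replicate 2 (24.4 to 24.8), Eif2ak3 58.1 CPM in P24 replicate 4 (46.9 to 48.6), Syvn1 27.2 CPM in P60 replicate 1 (32.0 to 32.7) and Sel1l 197 CPM in E17 replicate 2 (185 to 186).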

How the results depend on the processing

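Requiring a fold change of at least 2 reduced the counts to 14 (E17 against E13), 2 (P1 against E17), 1 (P5 against P1), 2 (P14 against P5), 1 (P60 against P24), 6 (P14 against E17) and 3 (P60 against P14). With no filter on low counts, P1 against E17 gave 9 and P5 against P1 gave 1. DESeq2 size factors gave 1 for P5 against P1, and the DESeq2 test gave 2 for P24 against P14. Scaling by library size alone gave 10 for P5 against P1, all lower, while 6.52% and 18.2% of all genes were called higher and lower under it. It gave 21 for P14 against P5. This scaling turned the values of Atf4 (-0.46), Sel1l (-0.016) and Ssr1 (-0.13) from E17 to P14, where it shifted all genes by -0.48. It gave 3 higher and 11 lower for P1 against E17 and 3 higher and 18 lower for P14 against P5, against 6 and 9, and 3 and 9, with TMM, while 11.6% and 19.3%, and 10.8% and 23.7%, of all genes were called higher and lower under it. limma-voom gave 11 for P5 against P1, 23 for P14 against P5, 11 for P24 against P14 and 23 for P60 against P24. Without the E13 libraries these counts were 7, 21, 6 and 24, on the compared stages only 4, 21, 7 and 22, and with the GC trend removed 4, 20 and 5 for the first 3. Without E13 replicates 1 and 4 and P1 replicate 1, P5 against P1 gave 6. Leaving out each library in turn gave 27 to 29 (E17 against E13), 8 to 15 (P1 against E17), 1 to 2 (P5 against P1), 8 to 12 (P14 against P5), 0 (P24 against P14), 13 to 14 (P60 against P24), 23 to 24 (P14 against E17) and 20 to 22 (P60 against P14). The causes were not tested. With the replicate number as a block, the counts were 31, 15, 2, 10, 0, 14, 24 and 25 in the same order of comparisons, and 275 of 280 single values kept their side of the threshold. The numbers were not taken to pair the samples, since 33 of the 84 pairs of libraries with the same number had deviations correlated above 0.1 (median 0.08). Per length, 151 of 245 stage levels moved by more than 1 SD when the longest transcript replaced the merged exons. Depth limited Chac1 and Trib3, which had as few as 0 and 1 reads in a library.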
